A study of Mus musculus with 13 samples.

Results

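The genes described here are 10 transcripts that cells are known to use when oxygen is short and when glucose is broken down without respiration: Hif1a, Car9, Slc2a1, Pgk1, Ldha, Hk2, Adm, Ndrg1, Egln3 and Bnip3. They were taken by gene symbol from a table of 24421 genes, all 10 were found, and all 10 passed the filter on low counts. RNA had been sequenced from 13 libraries of female MMTV-HER2/Neu mice, 2 from cancer-free mammary glands and 11 from individual tumors. Transcript levels were compared between tumors and glands, between tumors that did or did not form under stavudine, and between primary tumors and tumors that regrew under 17-DMAG.

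All mice were FVB/N-TgN females of the line 202Mul/J, named after its MMTV-HER2/neu transgene, a rat HER2/Neu cDNA driven by a viral promoter active in mammary epithelium. The glands came from mice of this line as well, with no drug. The genotype field reads wild type for these mice in spite of the transgene. The 3 primary untreated tumors arose in mice on plain water. The 3 primary STV tumors arose in mice whose drinking water held 1 mg/mL stavudine (STV), a nucleoside inhibitor of reverse transcriptase. The 3 recurrent DMAG tumors had regressed and then regrown while 17-DMAG, an inhibitor of the chaperone HSP90, was injected at 20 mg/kg, and the 2 recurrent DMAG+STV tumors did so with 1 mg/mL stavudine in the water too. In the study stavudine was started before tumors appeared in some mice and with tumor onset in others. The 3 primary STV tumors formed under it, but the labels do not say which start applies to the 2 recurrent DMAG+STV tumors. These groups may therefore differ in the start of stavudine as well as in recurrence. Ages at collection were not given.

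The protein of Hif1a is the oxygen-regulated subunit of the transcription factor HIF-1, which pairs with ARNT and binds short DNA words with the core ACGTG or GCGTG. When oxygen is present, prolyl hydroxylases, of which EGLN3 is a member, mark the subunit for destruction, so that HIF-1 is set mainly by the stability of the protein and its activity is usually read from its target transcripts. The other members are such targets: the glucose carrier Slc2a1, the glycolytic enzymes Hk2, Pgk1 and Ldha, the carbonic anhydrase Car9, which handles acid at the cell surface, the secreted vasodilator peptide Adm, the stress-responsive gene Ndrg1 and the mitophagy receptor Bnip3.

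Windows of 250 bases before to 50 bases after a start site (RefSeq, GRCm38.p6) were available for 9 of the 10 genes, Ndrg1 being the one not matched. Each of the 9 held ACGTG or GCGTG on either strand, where ACGTG was found in 19.6% of 32851 such windows, GCGTG in 32.4% and at least 1 of them in 43.8%. The pieces below come from Car9 and Egln3, the members that were higher in tumors than in glands, from Ldha, whose level ran opposite to that of Egln3, and from Adm, the member that varied most among tumors. Capitals mark the words ACGTG and GCGTG and their reverse complements, which overlap within CACGTG. These matches describe the letters only and do not show binding.
Car9, chr4:43506983-43507037, plus strand: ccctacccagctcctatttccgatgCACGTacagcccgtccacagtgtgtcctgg
Egln3, chr12:54204074-54204124, minus strand: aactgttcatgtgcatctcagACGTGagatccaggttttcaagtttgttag
Ldha, chr7:46845731-46845785, plus strand: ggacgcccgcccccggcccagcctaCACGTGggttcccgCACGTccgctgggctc
Adm, chr7:110627578-110627632, plus strand: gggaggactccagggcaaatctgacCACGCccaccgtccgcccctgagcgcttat
Ldha had windows at 2 start sites, the one shown with 7 matches and the other with 2. The window of Bnip3 had 5, while those of Car9 and Egln3 had 1 each. At least 2 matches were found in 20.6% of all windows. Matches were counted on each strand, so 1 CACGTG counts as 2 matches in all these numbers.

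The libraries held 39921388 to 56887708 counts, and the lowest count of any member was 38, for Adm in 1 gland. Levels below are CPM, counts divided by the library total after TMM scaling, which sets libraries to a shared scale, and levels between genes are compared only as CPM per kilobase of exon (RPKM). Gland replicate 2 stood apart, since milk protein transcripts made up 36.1% of its counts against 3.15% in gland replicate 1 and 0.489% to 2.47% in tumors. Among tumors, recurrent DMAG replicate 1 stood apart, with summed fibroblast markers of 6333 CPM against 307 to 2044 CPM in the other 10 tumors. Luminal epithelial markers were detected in every library, at 1672 to 3374 CPM summed in tumors and at 1764 and 2055 CPM in the glands. In whole tissue, fewer cells of a type and less RNA per cell cannot be told apart. The labels do not say whether the tumors of a group came from separate mice, so p-values measure the spread between these libraries.

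Per kilobase of exon, levels differed widely between the 10 genes over the 11 tumors. Ldha had the highest median RPKM (162.9, range 83.7 to 296.8), followed by Egln3 (157.9, range 96.7 to 221.0) and Pgk1 (90.1, range 67.3 to 149.8), and the ranges of these neighbors overlapped. Slc2a1 followed, with a median RPKM of 29.5 (15.3 to 45.6), and its range lay below that of Pgk1. Next were Hif1a at a median RPKM of 24.97 (19.4 to 38.7), Car9 at 10.99 (6.03 to 18.6), Bnip3 at 10.97 (7.597 to 34.5), Hk2 at 8.77 (5.25 to 26.6), Ndrg1 at 6.98 (3.62 to 70.6) and Adm at 1.89 (0.901 to 16.9). Of these the ranges of Hif1a and Car9 did not overlap, while each of the other neighbors overlapped, and Ndrg1 in its highest tumor exceeded the lowest level of Pgk1. In the glands the mean RPKM was 168.4 for Ldha, 86.6 for Ndrg1, 60.7 for Pgk1, 37.4 for Slc2a1, 36.5 for Egln3, 21.5 for Hk2, 20.5 for Hif1a, 16.3 for Bnip3, 2.12 for Car9 and 1.44 for Adm. Ndrg1 thus stood higher in this order than in tumors, at 26.6 and 146.6 RPKM, and Egln3 lower, at 58.2 and 14.8 RPKM. Exon lengths were those of GENCODE vM21, which may differ from the annotation that was counted. The levels of Pgk1 and Bnip3 are uncertain, because 53.9% and 47.2% of their 50-base words also occur in other annotated genes, such as Pgk1-rs7, and the antisense gene Gm45507 overlaps 22.3% of the exon bases of Bnip3.

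**Figure D1:**
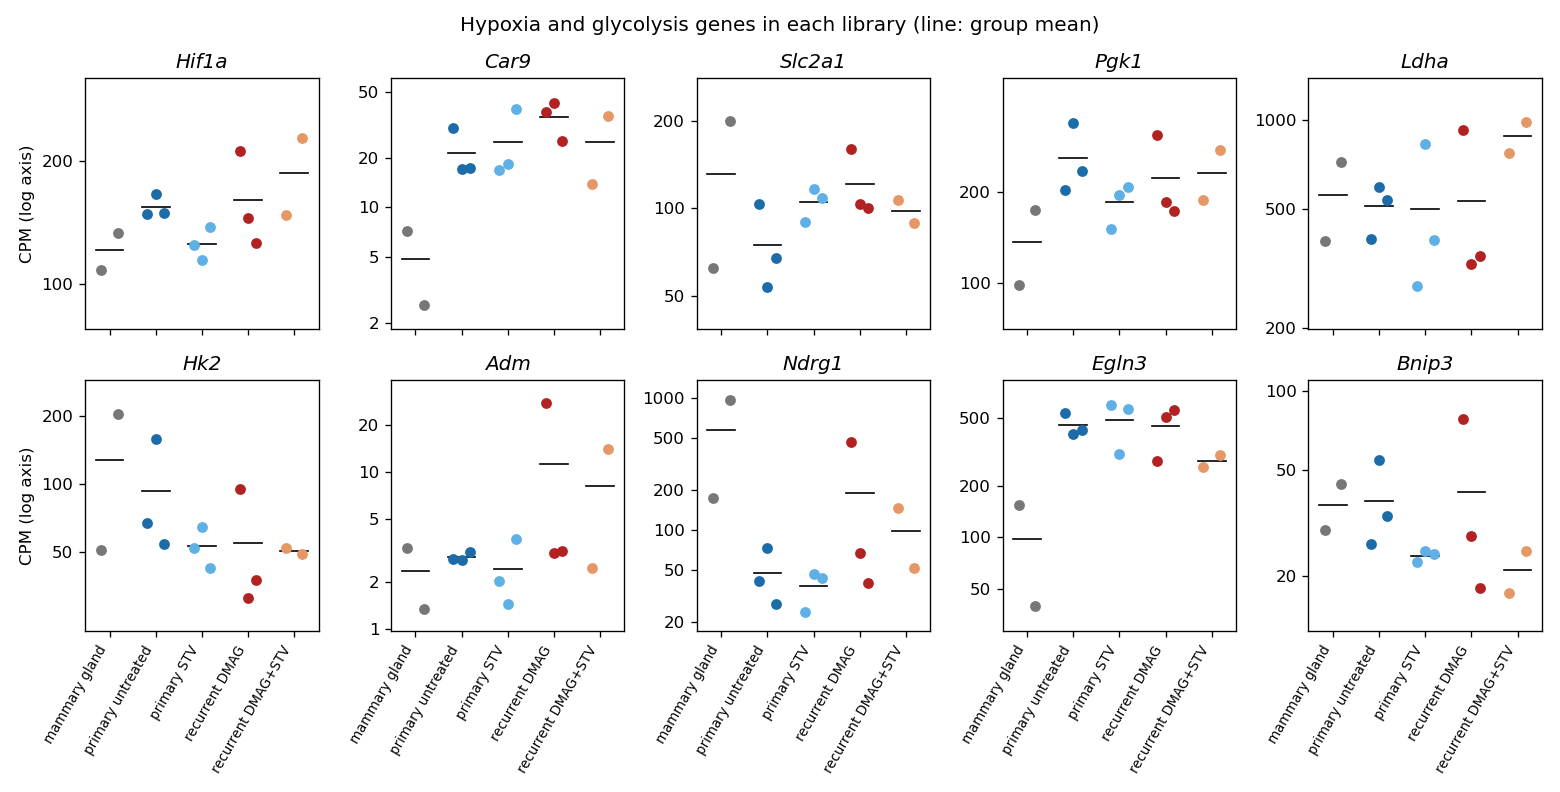
Each point is the level of a gene in 1 library, in TMM-scaled CPM on a log axis, by group, and each line is the group mean (2 or 3 libraries). Car9 and Egln3 were lower in both glands than in any tumor, while Adm, Ndrg1 and Bnip3 had their highest tumor level in recurrent DMAG replicate 1.

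The first comparison asked how tumors differed from the cancer-free gland. Of the 10 genes, Car9 and Egln3 were higher in tumors and Ndrg1 was lower, at an adjusted p under 0.05 in edgeR's quasi-likelihood test. Across all 17135 genes tested, 10.4% passed in either direction, 1.6% higher and 8.81% lower. The median log2 fold change of the members was 0.22 against -0.02 over all genes. Members whose gland and tumor levels did not overlap were 2, Car9 and Egln3, against 11.5% of all genes.

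Car9 stood at 7.21 and 2.57 CPM in the glands. In primary untreated tumors it was at 29.99, 17.1 and 17.2 CPM, in primary STV tumors at 16.8, 18.2 and 39.2 CPM, in recurrent DMAG tumors at 37.4, 42.9 and 25.3 CPM, and in recurrent DMAG+STV tumors at 13.9 and 35.5 CPM. Every tumor lay above both glands, and the 4 tumor groups overlapped each other. The difference was 2.40 on the log2 scale (SE 0.56, 95% interval 1.16 to 3.65, adjusted p = 0.0247), or 5.29-fold. An antisense gene, Gm12454, overlaps 9.29% of the exon bases of Car9, and the strand setting of the counting was not given.

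Egln3, the hydroxylase that is itself a HIF target, stood at 155.0 and 39.4 CPM in the glands. Its levels were 529.3, 399.2 and 420.3 CPM in primary untreated tumors, 588.2, 307.8 and 557.6 CPM in primary STV tumors, 278.7, 500.5 and 554.7 CPM in recurrent DMAG tumors, and 257.4 and 301.5 CPM in recurrent DMAG+STV tumors. All tumors exceeded both glands, and the recurrent DMAG+STV pair was at the low end of the tumor range. The log2 difference was 2.06 (SE 0.49, 95% interval 0.97 to 3.15, adjusted p = 0.0272), or 4.17-fold.

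Ndrg1 went the other way. Its gland levels were 175.4 and 966.9 CPM, and in tumors it was at 41.4, 72.9 and 27.7 CPM in the primary untreated group and 23.9, 46.0 and 43.5 CPM in the primary STV group. In recurrent DMAG tumors it was at 465.5, 67.5 and 40.03 CPM, and in recurrent DMAG+STV tumors at 145.4 and 51.8 CPM. The groups overlapped, because recurrent DMAG replicate 1 lay between the glands while the other 10 tumors lay below both. The log2 difference was -2.91 (SE 0.70, 95% interval -4.46 to -1.35, adjusted p = 0.0283), with tumors 7.495-fold lower.

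These 3 calls rested on gland replicate 2. Without it no member passed (Car9 1.94, Egln3 1.47 and Ndrg1 -1.12, with adjusted p of 0.200, 0.126 and 0.644), and without gland replicate 1 the count rose to 5, with Slc2a1 at -0.99 and Hk2 at -1.71 added. The call of Ndrg1 was also lost without primary untreated replicate 3, primary STV replicate 1 or recurrent DMAG+STV replicate 2 (adjusted p = 0.0514, 0.0503 and 0.0603). Adipocyte markers summed to 929 and 1166 CPM in the glands against 18.4 to 173 CPM in tumors, and basal and myoepithelial markers to 336 and 973 CPM against 22.8 to 272 CPM. All 8 fibroblast markers also had a negative difference, with 1 called and sums of 2577 and 2958 CPM in the glands against 307 to 6333 CPM in tumors. In the other direction, all 8 proliferation markers had a positive difference (median 0.71, none called). Their sums were 355 and 508 CPM in the glands against 175 to 905 CPM in tumors. Of 8 luminal markers 7 had a positive difference (median 0.62, none called higher), while Krt19 was called lower. The part of these cell types and of proliferation in these differences was not tested.

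The remaining 7 members did not pass. Pgk1 came nearest by unadjusted p, with a log2 difference of 0.70 (SE 0.30, adjusted p = 0.151). Hk2, the hexokinase of insulin-responsive and cancer tissues, was at 51.3 and 205.1 CPM in the glands and had a log2 difference of -1.07 (SE 0.50, adjusted p = 0.180). Gland levels of Slc2a1 were 62.1 and 200.5 CPM, and all tumors but primary untreated replicate 2, at 53.5 CPM, lay between them (log2 difference -0.42, SE 0.35). Hif1a itself ranged from 108.3 to 133.7 CPM in glands and from 114.3 to 228.1 CPM in tumors, with a log2 difference of 0.36 (95% interval -0.10 to 0.82). For Adm, Ldha and Bnip3 the differences were 1.10, 0.08 and -0.31, with intervals that included 0.

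Against the glands, the 3 primary untreated tumors alone brought the same 3 members nearest to the threshold. No member passed, where 2.11% of genes did, 0.28% higher and 1.83% lower. Egln3 was at 2.21 (SE 0.54, adjusted p = 0.0611), Car9 at 2.12 (SE 0.60, adjusted p = 0.0790) and Ndrg1 at -3.59 (SE 1.03, adjusted p = 0.0816). Levels did not overlap for 5 of the 10 members, against 39.2% of all genes, and these were the 3 just given with Pgk1 (0.92, SE 0.35, adjusted p = 0.147) and Hif1a (0.36, SE 0.24). The log2 differences of Slc2a1, Hk2, Ldha, Adm and Bnip3 were -0.81, -0.45, -0.12, 0.30 and 0.05, with intervals that included 0. At an unadjusted p under 0.05 there were 4 members, against 24.5% of genes, and DESeq2 called 3, namely Car9, Ndrg1 and Egln3. Without recurrent DMAG replicate 1, a tumor outside this comparison, Ndrg1 and Egln3 passed. Without gland replicate 1 these, Car9 and Slc2a1 (-1.38) passed, and without gland replicate 2 the difference of Slc2a1 was 0.36.

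**Figure D2:**
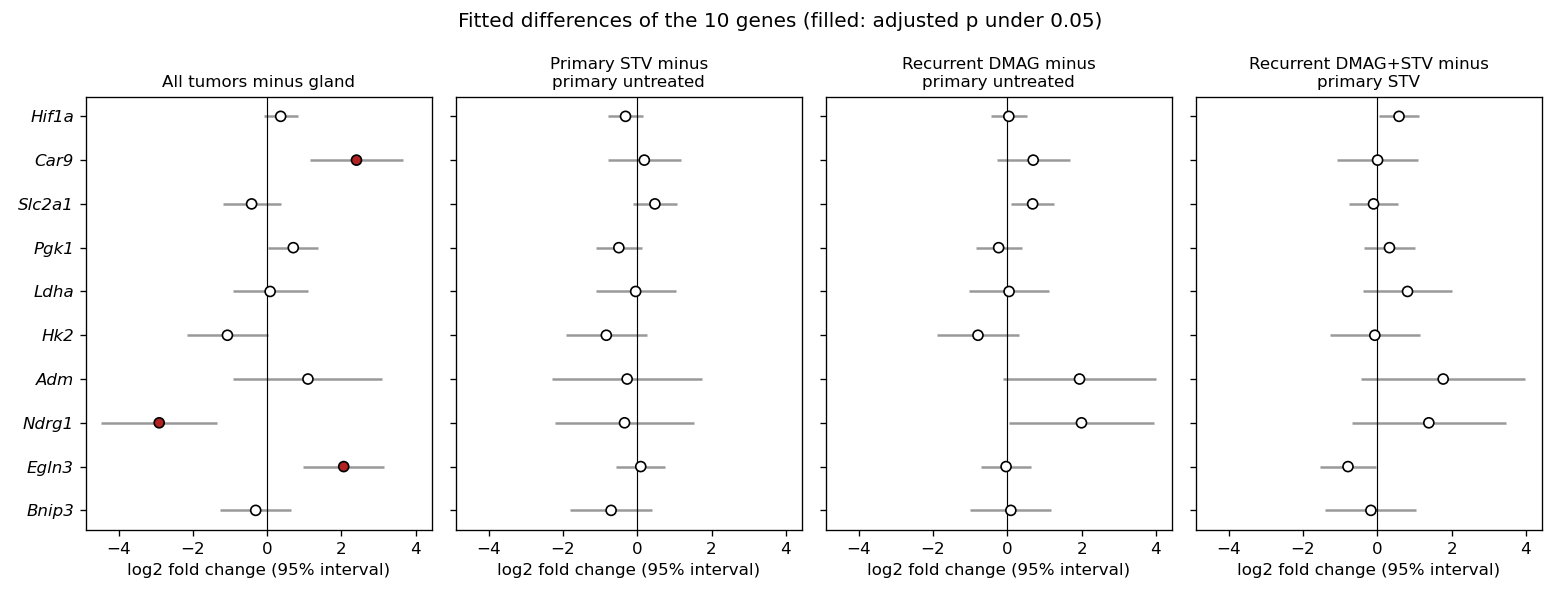
Points are log2 fold changes of the 10 genes with their 95% intervals, in 4 comparisons, and filled points passed an adjusted p of 0.05. Only the panel of all tumors minus gland has filled points, Car9 and Egln3 above 0 and Ndrg1 below 0.

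Other genes of the pathway were examined as 3 lists chosen from textbook knowledge, without the members. Of 12 oxygen-sensing genes, 1 was lower in tumors than in glands and none was higher. This gene was Epas1, which encodes HIF-2 alpha, at 88.8 CPM on average in tumors and 208 CPM in glands (log2 difference -1.22, SE 0.24, adjusted p = 0.0130). Endothelial cells are known to express it, and all 8 endothelial markers also had a negative difference, with 3 called, a median of -1.25 and sums of 360 and 333 CPM in the glands against 79.2 to 340 CPM in tumors. None of these markers was at 0, and their part in the difference of Epas1 was not tested. Of 24 tested glycolysis enzymes and transporters, 4 were higher and 2 lower. The largest called differences were those of the lactate carrier Slc16a1 (-3.61, SE 0.58, adjusted p = 0.00526), the insulin-responsive glucose carrier Slc2a4 (-2.81, SE 0.61, adjusted p = 0.0185) and the phosphofructokinase Pfkp (1.61, SE 0.35, adjusted p = 0.0183). Of 29 other HIF targets, 1 was higher, the transcriptional repressor Bhlhe40, at 171.5 against 74.1 CPM (1.18, SE 0.24, adjusted p = 0.0148). The list medians were 0.06, 0.14 and 0.33, against -0.02 over all genes. Of all genes tested, 1.6% were called higher and 8.81% lower. Slc2a4 is a fat and muscle gene by background knowledge. In gland replicates 1 and 2 it stood at 21.2 and 36.8 CPM. Adipocyte markers summed to 1166 and 929 CPM there, and skeletal muscle markers to 24.3 and 2290 CPM. In tumors the muscle sums ranged from 8.43 to 2192 CPM. The part of either tissue in the difference of Slc2a4 was not tested. None of these 5 genes passed without gland replicate 2, where the differences were -0.77 for Epas1, -1.84 for Slc16a1, -2.27 for Slc2a4, 1.26 for Pfkp and 1.06 for Bhlhe40.

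In primary untreated tumors alone against glands, the called genes of the lists were Epas1 (-1.49), Slc16a1 (-4.07), the glucose-6-phosphate isomerase Gpi1 (0.91) and Bhlhe40 (1.501), with adjusted p of 0.0457, 0.0476, 0.0427 and 0.0382. In this comparison 2.11% of all genes were called. None of the 4 passed without gland replicate 2, nor without any 1 of the primary untreated or primary STV tumors. With each library left out in turn the differences ranged from 0.73 to 1.01 for Gpi1, 1.39 to 1.77 for Bhlhe40, -1.75 to -1.03 for Epas1 and -4.79 to -2.29 for Slc16a1. The 2 last were smallest without gland replicate 2, where Gpi1 was at 0.99 and Bhlhe40 at 1.39.

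The next comparison asked whether tumors that formed under stavudine differed from those on plain water. None of the 16870 genes passed in edgeR (0%), and 634 genes, or 3.76%, had an unadjusted p under 0.05, where DESeq2 called 17. No member had an unadjusted p under 0.05, and DESeq2 called none. Levels did not overlap for 2 members, against 10.8% of genes, and both were lower under stavudine. Hif1a was at 148.3, 166.3 and 149.6 CPM on water and at 124.7, 114.3 and 137.8 CPM on stavudine (log2 difference -0.31, SE 0.21, adjusted p = 1.00). Bnip3 was at 26.4, 54.8 and 33.8 CPM on water and at 22.4, 24.8 and 24.2 CPM on stavudine (-0.70, SE 0.49, adjusted p = 1.00). The smallest member p was that of Slc2a1, which was at 103.5, 53.5 and 67.5 CPM on water and at 89.6, 116.7 and 108.6 CPM on stavudine (0.48, SE 0.26, unadjusted p = 0.0979). The intervals were wide, for example -1.12 to 0.13 for Pgk1, at a log2 difference of -0.49. Hk2 had the largest difference in size, -0.83 (SE 0.49), and those of Ndrg1, Adm, Ldha, Egln3 and Car9 were -0.34, -0.27, -0.04, 0.095 and 0.19, with intervals that included 0.

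Of the 24 other glycolysis enzymes and transporters, 23 were lower in primary STV than in primary untreated tumors, where 55.1% of all genes were, and none passed in edgeR. Their median was -0.42 against -0.03 over all genes. The mean log2 CPM over the list was 5.75, 5.77 and 5.35 in the untreated tumors and 4.94, 5.15 and 5.23 under stavudine, so the groups did not overlap. The smallest p was that of Gpi1, at 345, 502 and 373 CPM against 255, 255 and 323 CPM (-0.56, SE 0.16, unadjusted p = 0.00601). Leaving out each library in turn, chosen after seeing the data, kept the median between -0.51 and -0.31. The list includes the muscle isozymes Pgam2 and Eno3, and skeletal muscle markers summed to 1354, 14.8 and 44.8 CPM in the untreated tumors and to 16.4, 238 and 22.4 CPM under stavudine. Without the untreated tumor at 1354 CPM the median was -0.41. All 8 macrophage, all 8 endothelial and all 8 fibroblast markers were lower under stavudine as well, with medians of -0.22, -0.31 and -0.44 and none called. Macrophage sums were 178 to 201 CPM on water and 148 to 170 CPM on stavudine, endothelial sums 124 to 161 and 82.8 to 120 CPM, and fibroblast sums 473 to 1020 and 307 to 760 CPM. Of these 3 sums only the fibroblast one overlapped between the groups, and the part of these cell types in the list was not tested. Of the oxygen-sensing genes and the other HIF targets none passed, and the smallest p values were those of the hydroxylase Egln1 (-0.97, SE 0.33, unadjusted p = 0.0156) and of Bhlhe40 (-0.64, SE 0.22, unadjusted p = 0.0179).

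Recurrence without stavudine was read from the recurrent DMAG against the primary untreated tumors. No gene passed in edgeR (0%), 1635 genes (9.69%) had an unadjusted p under 0.05, and DESeq2 called 61. Among the members 2 had an unadjusted p under 0.05, Slc2a1 and Ndrg1, and DESeq2 called none. No member had levels that did not overlap, against 15.1% of genes. Slc2a1 was at 159.9, 103.5 and 100.6 CPM in recurrent DMAG tumors, against 103.5, 53.5 and 67.5 CPM (log2 difference 0.68, SE 0.26, adjusted p = 0.510). Primary untreated replicate 1 reached the level of the 2 lower recurrent tumors, and the difference was 0.45 without recurrent DMAG replicate 1.

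Ndrg1 and Adm showed the largest differences, at 1.998 (SE 0.86, adjusted p = 0.510) and 1.94 (SE 0.92, adjusted p = 0.510), and both came from 1 library. Adm was at 27.4, 3.06 and 3.15 CPM in recurrent DMAG tumors and at 2.79, 2.77 and 3.09 CPM in primary untreated tumors. Replicate 1 was 8.95 times as high as the lowest of its group, and the other tumors of the group lay near the primary ones. For Ndrg1 this ratio was 11.6. Without recurrent DMAG replicate 1 the differences were 0.11 for Adm and 0.19 for Ndrg1. In the same library Bnip3 was at 78.2 CPM, against 28.2 and 17.9 CPM in the others of its group, and Ldha at 923.5 CPM, against 329.0 and 349.9 CPM. That library also had the highest macrophage sum (604 CPM against 148 to 366 CPM in the other tumors) and endothelial sum (340 against 79.2 to 199 CPM), besides the fibroblast sum given above, with no marker of these lists at 0, while its luminal sum of 3126 CPM lay within the tumor range. The part of these cell types in the levels of Adm, Ndrg1, Bnip3 and Ldha was not tested.

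Car9 had a difference of 0.70 (SE 0.44, 95% interval -0.28 to 1.68) and Hk2 one of -0.79 (SE 0.49). For Pgk1, Egln3, Hif1a, Ldha and Bnip3 the differences were -0.23, -0.03, 0.04, 0.05 and 0.096, and without recurrent DMAG replicate 1 those of Ldha and Bnip3 were -0.58 and -0.73. Hk2 stood at 159.0 CPM in primary untreated replicate 2 and between 54.7 and 67.5 CPM in the others of that group, and without this library its difference was -0.16. Of the pathway lists none passed, the smallest p being those of Egln1 (-0.52, unadjusted p = 0.145), the phosphofructokinase Pfkl (-0.51, unadjusted p = 0.0119) and Angptl4, a secreted lipase inhibitor (2.81, unadjusted p = 0.0184). Angptl4 stood at 116 CPM in recurrent DMAG replicate 1, against 8.89 and 13.2 CPM in the others of its group. Of the 24 glycolysis enzymes and transporters, 8 were higher and 16 lower (median -0.20), where 50.6% of all genes were lower.

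Recurrence under stavudine was read from the recurrent DMAG+STV against the primary STV tumors. No gene passed in edgeR (0%), with 1696 genes (10.1%) at an unadjusted p under 0.05 and 331 called by DESeq2. Of the members, Hif1a and Egln3 had an unadjusted p under 0.05, and DESeq2 called none. Hif1a was at 147.2 and 228.1 CPM against 124.7, 114.3 and 137.8 CPM (0.58, SE 0.24, adjusted p = 0.466). Egln3 was at 257.4 and 301.5 CPM against 588.2, 307.8 and 557.6 CPM (-0.79, SE 0.34, adjusted p = 0.487). Levels did not overlap for these genes and for Ndrg1 (1.39, SE 0.92), so for 3 members, against 35.3% of genes. With 2 recurrent libraries each weighed heavily: the difference of Hif1a was 0.23 without replicate 2, and that of Adm, 1.77 (SE 0.98), was 0.01 without it, as Adm was at 2.44 and 13.97 CPM in the pair. The difference of Ndrg1 was 0.45 without replicate 1. Ldha was at 775.1 and 982.5 CPM against 276.9, 831.3 and 396.1 CPM (0.81, SE 0.53), and its interval of -0.37 to 1.998 included 0. Pgk1, Bnip3, Slc2a1, Hk2 and Car9 had differences of 0.33, -0.17, -0.10, -0.07 and 0.0072, and that of Car9 was -0.83 without replicate 2.

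Of the 24 glycolysis enzymes and transporters, 22 were higher in recurrent DMAG+STV than in primary STV tumors, where 51.8% of all genes were, with a median of 0.55 against 0.01 over all genes and none called. The smallest p was that of Pfkp, at 127 and 239 CPM against 66.8, 80.4 and 115 CPM (1.07, SE 0.30, unadjusted p = 0.00577). Without recurrent DMAG+STV replicate 2, whose skeletal muscle sum was 2192 CPM against 34.2 CPM in replicate 1, the median was 0.22 and 18 of 24 were higher. This comparison uses the same primary STV libraries as the one on stavudine in primary tumors, so the directions of the list are not separate evidence. In the other lists none passed. The smallest p values were those of the ubiquitin ligase Siah2 (-0.60, unadjusted p = 0.0118) and of the cytokinesis gene Anln (-1.24, unadjusted p = 0.00100), and proliferation markers summed to 391.8 and 175 CPM in the recurrent pair against 538 to 828 CPM in primary STV tumors. All 8 fibroblast markers (median 1.33), all 8 macrophage markers (0.92) and all 8 endothelial markers (0.68) were higher in the recurrent pair, and 7 of 8 luminal markers were lower (-0.56), with none called. Fibroblast sums were 1574 and 2044 CPM against 307 to 760 CPM, and macrophage sums 340 and 366 CPM against 148 to 170 CPM, so neither overlapped. Endothelial sums were 120 and 199 CPM against 82.8 to 120 CPM, and luminal sums 2669 and 1672 CPM against 2784 to 3236 CPM. The part of these cell types in the differences of the list, Hif1a and Egln3 was not tested.

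**Figure D3:**
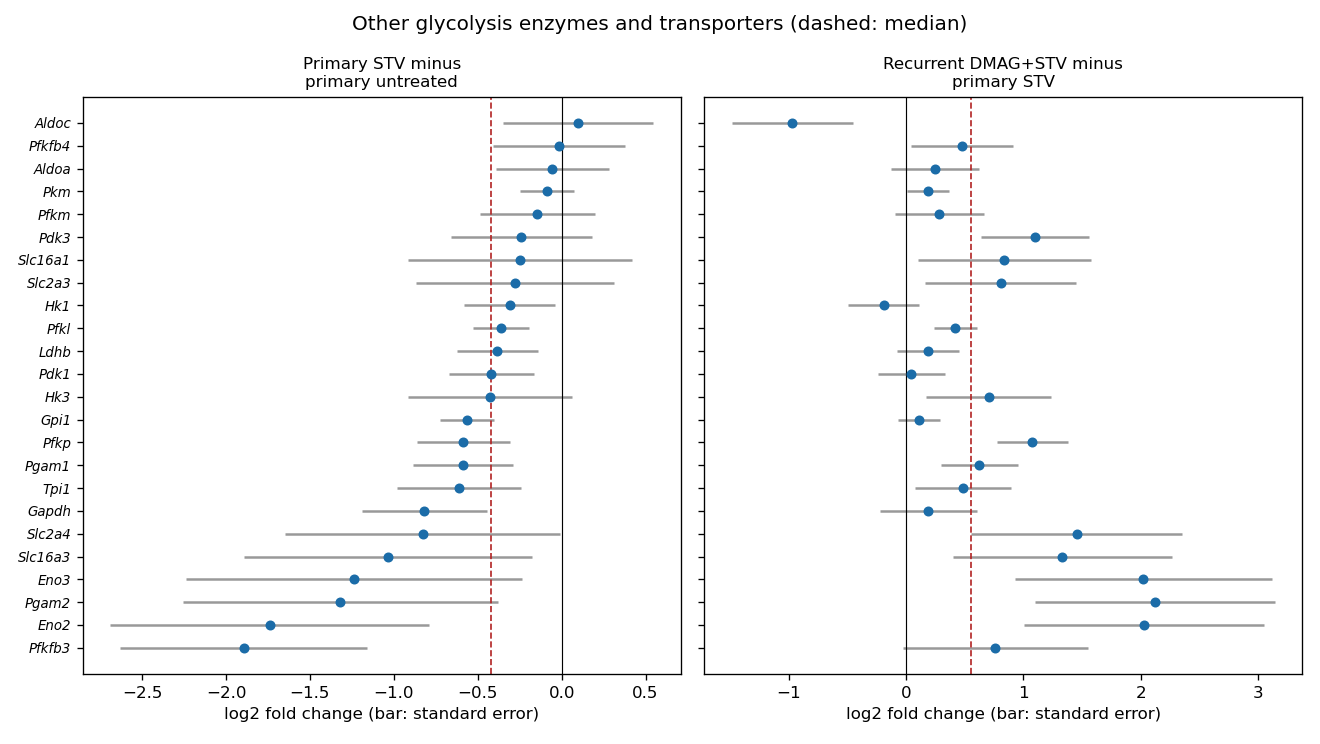
Each point is the log2 fold change of 1 of 24 glycolysis enzymes and transporters, with its standard error, for stavudine in primary tumors (left) and for recurrence under stavudine (right), and dashed lines are the medians of -0.42 and 0.55. On the left 23 points lie below 0 and on the right 22 lie above it, and both panels use the primary STV tumors.

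Recurrent tumors with and without stavudine were compared next. No gene passed in edgeR (0%), 1323 genes (7.84%) had an unadjusted p under 0.05, and DESeq2 called 277 genes but no member. No member had an unadjusted p under 0.05 or levels that did not overlap, the latter against 21.5% of genes. Egln3 (-0.66, SE 0.34) and Bnip3 (-0.97, SE 0.56) had the smallest p, at 0.0793 and 0.115 unadjusted, and Ldha had a difference of 0.72 (SE 0.53). The differences of Ndrg1, Car9, Adm, Slc2a1, Hk2, Pgk1 and Hif1a were -0.95, -0.50, -0.44, -0.31, -0.11, 0.06 and 0.23, and without recurrent DMAG replicate 1 those of Ndrg1 and Adm were 0.88 and 1.401. In the pathway lists none passed, with the smallest unadjusted p at 0.0993 for Siah2, 0.0112 for Pfkl and 0.000248 for Anln. Of the 24 glycolysis enzymes and transporters, 12 were higher and 12 lower, where 49.4% of all genes were higher. All 8 proliferation markers were lower in the recurrent DMAG+STV pair (median -1.45, none called). Their sums were 391.8 and 175 CPM there, against 853 to 905 CPM in recurrent DMAG tumors. Of 8 luminal markers, 7 were lower too (median -0.58, none called). All 12 skeletal muscle markers were higher in the pair (median 2.51, none called). The part of these cells in the differences was not tested.

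Averaged over both water arms, recurrent tumors differed from primary ones in no gene by edgeR (0%), with 2296 genes (13.6%) at an unadjusted p under 0.05 and 419 called by DESeq2, none of them a member. Adm (1.86, SE 0.67) and Ndrg1 (1.69, SE 0.63) were the 2 members with an unadjusted p under 0.05, with adjusted p of 0.323 and 0.327, and without recurrent DMAG replicate 1 they were at 0.94 and 0.79. For Ldha, Car9, Hif1a, Slc2a1, Pgk1, Bnip3, Egln3 and Hk2 the differences were 0.43, 0.35, 0.31, 0.29, 0.05, -0.04, -0.41 and -0.43, with intervals that included 0. No member had levels that did not overlap, against 1.34% of genes. In the lists the smallest p were those of Arnt2 (2.13, unadjusted p = 0.0154), Pdk3 (0.78, unadjusted p = 0.0335) and Ddit4 (1.49, unadjusted p = 0.00461). Ddit4 was at 63.6, 16.8 and 13.4 CPM in recurrent DMAG tumors and at 27.0 and 56.0 CPM in the DMAG+STV pair. All 8 fibroblast (median 1.54), basal and myoepithelial (1.03), macrophage (0.73) and endothelial markers (0.60) were higher, and all 8 proliferation markers lower (-0.28). None of these was called. The part of these cell types was not tested. Of 24 glycolysis genes 18 were higher (0.20), against 50.3% of all genes. Whether the change at recurrence differed between the arms was tested as an interaction. No gene passed (0%), 1322 genes (7.84%) had an unadjusted p under 0.05, DESeq2 called 189, and no member was among either set. The nearest members were Slc2a1 (-0.79, SE 0.39, unadjusted p = 0.0739) and Hif1a (0.54, SE 0.32, unadjusted p = 0.120). For Ldha, Hk2, Pgk1, Adm, Bnip3, Ndrg1, Car9 and Egln3 the interaction was 0.76, 0.72, 0.56, -0.17, -0.27, -0.61, -0.69 and -0.76, and without recurrent DMAG replicate 1 it was 1.65 for Adm and 1.19 for Ndrg1. In the lists the smallest p were those of Siah2, Pfkl and Anln, at 0.0810, 0.00392 and 0.000678 unadjusted. Pfkl had a positive interaction and Anln a negative one. Of the 24 glycolysis enzymes and transporters, 20 had a positive interaction (median 0.50, none called), where 52.5% of all genes did. All 8 proliferation markers (median -1.58) and all 8 luminal markers (-0.61) also had a negative interaction, with none called. All 12 skeletal muscle markers had a positive one (median 4.75, none called), and their sum was 2192 CPM in recurrent DMAG+STV replicate 2. The part of these cells in the interaction was not tested.

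**Figure D4:**
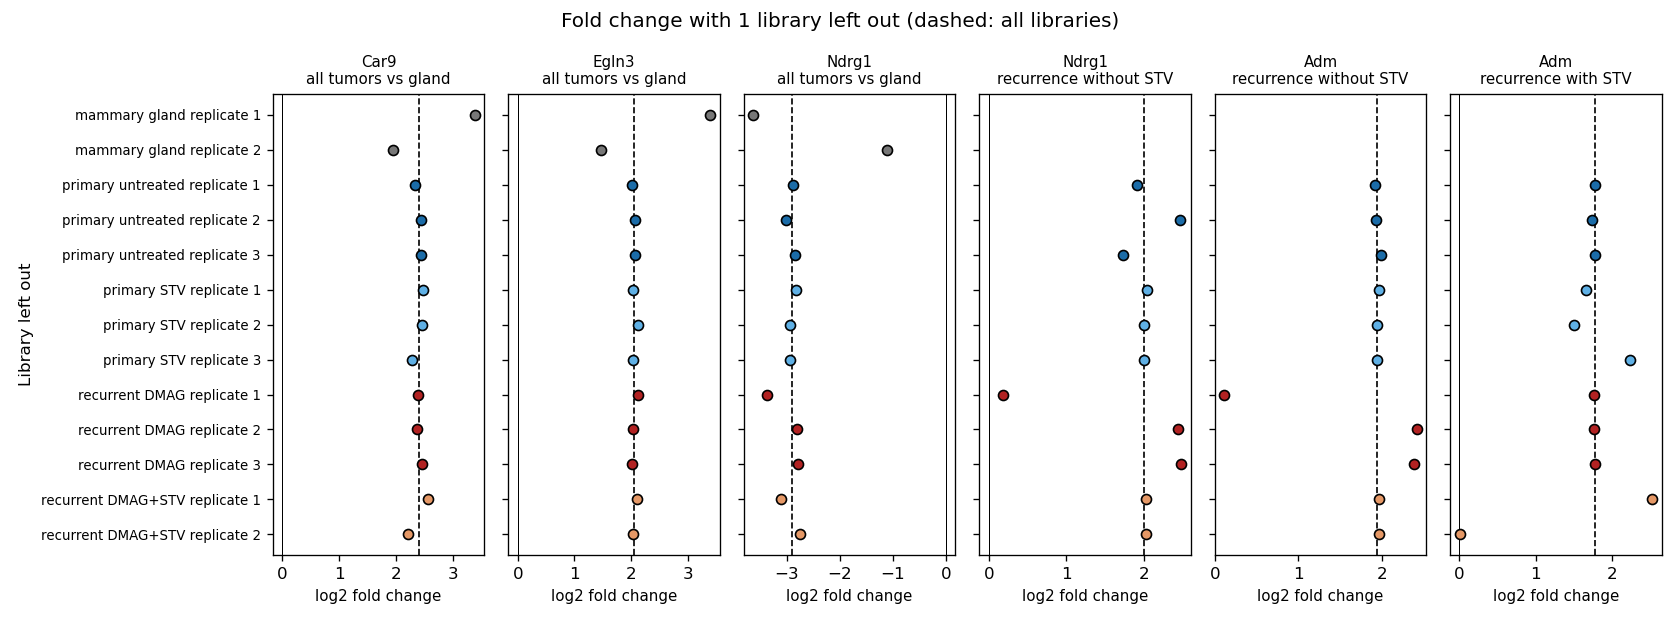
Each point is the log2 fold change of a gene with the library named on the left taken out, and the dashed line is the value with every library. The tumor-gland differences of Car9, Egln3 and Ndrg1 moved most with the glands, and those of Ndrg1 and Adm at recurrence came near 0 without recurrent DMAG replicate 1 or, for Adm under stavudine, without recurrent DMAG+STV replicate 2.

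The members also differed in how much they varied among the 11 tumors. The standard deviation of log2 CPM was 1.23 for Adm and 1.20 for Ndrg1, above those of 92.2% and 91.6% of genes. It was lowest for Hif1a, at 0.31, above that of 42.2% of genes. Averaged as z-scores over the 10 members, recurrent DMAG replicate 1 had the highest value, 1.38, followed by recurrent DMAG+STV replicate 2 at 0.45 and primary untreated replicate 2 at 0.30, and the lowest was -0.64 in primary STV replicate 1.

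Over the 45 pairs of members, Pearson's r across the 11 tumors was positive in 32 and had a median of 0.38. The tumors share the scaling and each tumor enters every pair. After Benjamini-Hochberg adjustment over the 45 pairs, 3 pairs had a two-sided permutation p under 0.05 for r and 1 for Spearman's rho. This pair was Ldha and Egln3, which ran in opposite directions, with r = -0.95 (permutation p = 0.00012, adjusted 0.0054) and rho = -0.87 (permutation p = 0.00091, adjusted 0.0410). The 4 tumors with Ldha of 775.1 CPM or more had Egln3 of 257.4 to 307.8 CPM, and the other 7 had Egln3 of 399.2 CPM or more. Pooled over the groups, r was -0.94 for deviations from the group means. Within primary untreated and primary STV tumors the 2 genes ranked in opposite orders. In the recurrent DMAG+STV pair, however, both were higher in replicate 2 (Ldha 775.1 and 982.5 CPM, Egln3 257.4 and 301.5 CPM). Recurrent DMAG replicates 2 and 3 also went the same way (Ldha 329.0 and 349.9 CPM, Egln3 500.5 and 554.7 CPM). Across the tumors r stayed between -0.97 and -0.94 when each tumor was left out. It was -0.95 without the 2 tumors farthest from the median of Ldha. Ldha shares 9.26% of its 50-base words with other genes, and Egln3 shares none.

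The other pairs were Hif1a with Adm, at r = 0.89 (permutation p = 0.00189, adjusted 0.0414) and rho = 0.58 (permutation p = 0.0653, adjusted 0.267), and Pgk1 with Bnip3, at r = 0.81 (permutation p = 0.00276, adjusted 0.0414) and rho = 0.73 (permutation p = 0.0145, adjusted 0.163). Both rested in part on a few tumors. Without the 2 tumors farthest from the median r was 0.58 and 0.47. Pgk1 and Bnip3 share 53.9% and 47.2% of their 50-base words with other genes, so their levels are uncertain. For Adm with Ndrg1, r was 0.64 (permutation p = 0.0480, adjusted 0.187) with rho of 0.18 (permutation p = 0.595, adjusted 0.743), and r was 0.04 without recurrent DMAG replicate 1.

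**Figure D5:**
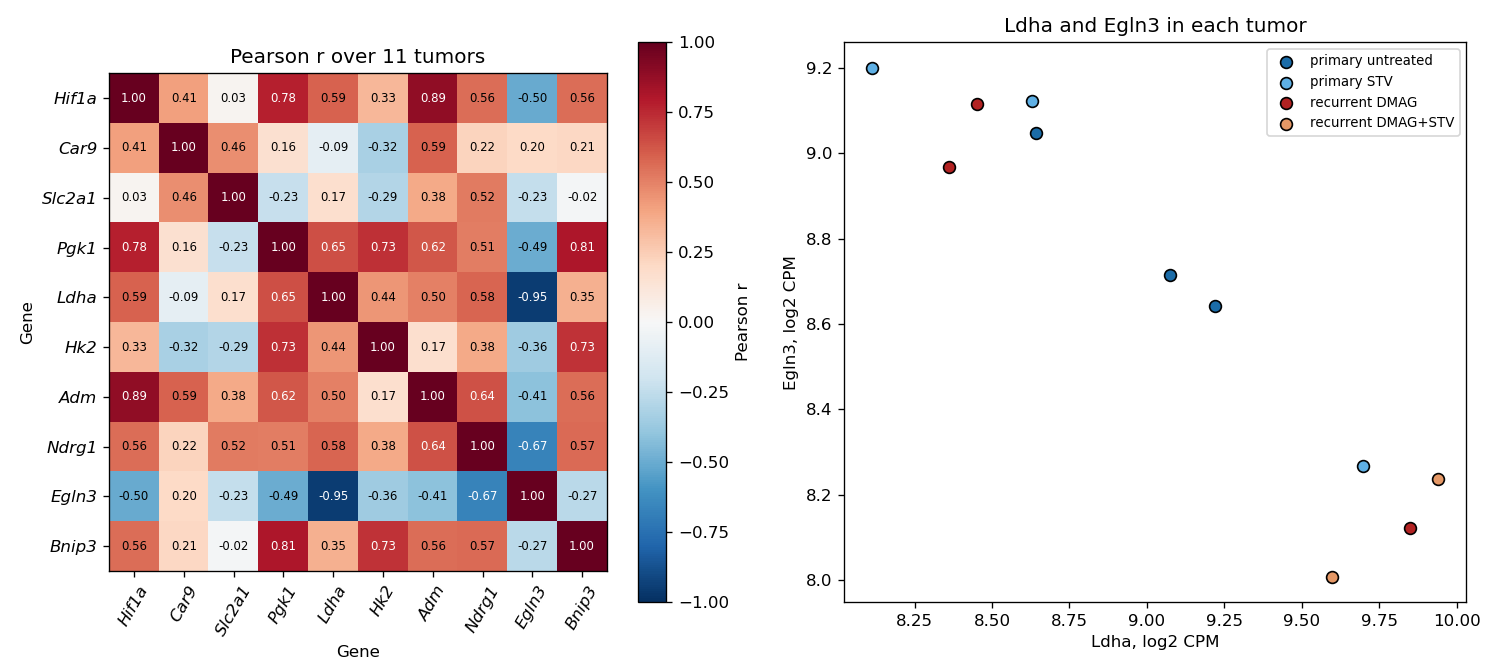
The left panel gives Pearson's r of log2 CPM for each pair of members over the 11 tumors, and the right panel plots Egln3 against Ldha in each tumor, colored by group. The pair falls along a descending line with r = -0.95, and tumors of several groups lie at each end.

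Among 13002 genes, those most alike to the mean z-score of the members over the 11 tumors were, by Spearman's rho and with no test, Slc16a3 (0.92), Tpi1 (0.91), Ak4 (0.90), Gys1 (0.90), Mex3b (0.89), Eno2 (0.88), Col4a1 (0.87) and Fkbp9 (0.87). Slc16a3 is the lactate exporter of glycolytic cells, and Tpi1 and Eno2 are glycolytic enzymes. These 3 and Ak4 and Gys1 also stand in the pathway lists, which hold 12, 26 and 30 genes. Slc16a3 was at 23.0 CPM in recurrent DMAG replicate 1, the tumor with the highest mean z-score and fibroblast sum. In the other tumors it was at 1.15 to 5.50 CPM. Those most alike to Car9 alone were Phtf1 (0.88), Samd4 (0.86), Cdh23 (0.85) and Plod2 (0.85), the last a collagen lysyl hydroxylase known as a HIF target.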

How the data were processed

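Gene counts from 13 libraries were used as deposited. The authors prepared stranded total RNA libraries depleted of ribosomal RNA, converted reads with bcl2fastq (2.20), aligned them to mm10 (GRCm38) with STAR and made raw counts per gene with featureCounts (Subread 1.6.2) on a UCSC annotation; the STAR version, strand setting and handling of reads with several matches are not given in the sources used here. The deposited counts were tested with edgeR (4.0.16, R 4.3.3): filterByExpr, TMM factors, robust quasi-likelihood fits and Benjamini-Hochberg adjustment over all genes. Comparisons with glands used all 13 libraries (17135 genes) and comparisons among tumors the 11 tumors (16870 genes). SEs are the log2 fold change over the square root of F. The study used DESeq2, which was run here (1.42.0) as an alternative, as were RLE factors, no filter, a replicate block, the compared groups alone, library sizes without muscle, adipocyte and milk genes, and each library left out. Log2 CPM used a prior count of 2, and correlations used 100000 permutations. The edgeR script was tested on simulated data. Counts cover 39921388 to 56887708 reads a library, and 3 counts correspond to 0.0587 to 0.107 CPM.

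The 10 members and the pathway and marker lists were chosen with earlier results of these data known. All members are named in each comparison; of each pathway list the called genes are named, at most 3 by size, or else the gene with the smallest p. Angptl4, Ddit4 and Slc16a3 in single libraries, Pgam2 and Eno3 were named after their values were seen. The marker gene Ly6g had no row. Of the marker lists not given in the report, summed CPM was 2.48 to 18.2 for neutrophils and 18.9 to 59.4 for erythroid cells, with 4 of 7 erythroid genes at 0. These 4 were the globin genes Hba-a1, Hba-a2, Hbb-bs and Hbb-bt. Eno1 of the glycolysis list did not exceed 0.0398 CPM and was not tested for differences. Whether such values reflect absent transcripts or the way reads were counted was not tested.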

Additional observations from a re-analysis of the deposited data

How the results depend on the processing

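Of 1370 alternative values for the fold changes of the members, 1284 kept their direction and their side of the threshold. This count says little about the calls, because only 3 of the differences were called. In all tumors against glands, Car9 and Egln3 each kept their call in 16 of 18 alternatives and Ndrg1 in 13 of 18. Direction turned in 66, none of them for a called difference. Beside leaving out a library, this happened for Car9 in recurrence with stavudine with no filter (-0.015), with library sizes without muscle, adipocyte and milk genes (-0.022) and with the compared groups alone (-0.0055), and with the replicate block for Ldha in primary untreated tumors against glands (0.049), Pgk1 in recurrent tumors with and without stavudine (-0.013) and Adm in the interaction (0.20). With 1 library left out, the following differences took both signs. For all tumors against glands these ranges were -0.99 to 0.75 for Slc2a1, -0.26 to 0.67 for Ldha, -1.71 to 0.34 for Hk2 and -0.54 to 0.096 for Bnip3. For primary untreated tumors against glands these ranges were -1.38 to 0.36 for Slc2a1, -0.46 to 0.48 for Ldha, -1.09 to 0.97 for Hk2, -0.11 to 1.12 for Adm and -0.30 to 0.47 for Bnip3. For stavudine in primary tumors these ranges were -0.30 to 0.51 for Car9, -0.61 to 0.27 for Ldha, -0.61 to 0.13 for Ndrg1 and -0.054 to 0.35 for Egln3. For recurrence without stavudine these ranges were -0.18 to 0.19 for Hif1a, -0.52 to 0.023 for Pgk1, -0.58 to 0.34 for Ldha, -0.23 to 0.24 for Egln3 and -0.73 to 0.46 for Bnip3. For recurrence with it these ranges were -0.83 to 0.52 for Car9, -0.25 to 0.017 for Slc2a1, -0.21 to 0.088 for Hk2 and -0.47 to 0.057 for Bnip3. For stavudine in recurrent tumors these ranges were -0.13 to 0.50 for Hif1a, -1.34 to 0.0077 for Car9, -0.24 to 0.37 for Pgk1, -0.41 to 0.55 for Hk2, -2.20 to 1.401 for Adm and -1.89 to 0.88 for Ndrg1. For the mean over both arms these ranges were -0.057 to 0.62 for Car9, -0.10 to 0.18 for Pgk1 and -0.45 to 0.14 for Bnip3. For the interaction these ranges were -1.96 to 1.65 for Adm, -1.58 to 1.19 for Ndrg1 and -0.66 to 0.54 for Bnip3. The count of members called in all tumors against glands was 3, and ranged from 0 to 5 when 1 library was left out. In primary untreated tumors against glands it ranged from 0 to 4, and DESeq2 called 3. In the 6 comparisons among tumors no alternative called a member. Over all genes, leaving out 1 library gave 535 to 4255 calls for all tumors against glands, 0 to 3381 for primary untreated tumors against glands, 0 to 1 for recurrence without stavudine, 0 to 100 for recurrence with it, 0 to 141 for stavudine in recurrent tumors, 0 to 6 for the mean over both arms and 0 to 77 for the interaction. DESeq2 called 3242, 2352, 17, 61, 331, 277, 419 and 189 genes in the order of the report. With the compared groups alone the counts were 0 for primary untreated tumors against glands and 2 for recurrence with stavudine. The median r of deviations was -0.05 over 15 pairs of same-numbered libraries and 0.03 over 30 pairs with different numbers. This check cannot decide whether replicate numbers pair the libraries, because deviations within groups of 2 or 3 are tied to each other. With the replicate block, 371 and 4 genes were called against glands and 0 in the comparisons among tumors, and no member in any. For the pathway genes called against glands, 107 of 166 values under alternatives added after seeing the data kept the call. The number of correlated pairs of members was 14 for deviations from group means and 1 to 6 with 1 tumor left out, against 3. The permutations for deviations shuffled them freely over all tumors although the group means had been removed. Their p-values may therefore be too small, and the 14 pairs may be an overcount. The cause of these changes was not tested. With 2 or 3 libraries a group, the wide intervals limit what differences among tumors could be detected.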
